A study of Rattus norvegicus with 6 samples.

Results

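The nuclear receptors and the coactivator that set the expression of genes for fat burning in heart muscle were followed in cultured heart muscle cells exposed to isoproterenol, a synthetic catecholamine that activates beta-adrenergic receptors. They are 10 genes: the 3 peroxisome proliferator-activated receptors (Ppara, Ppard and Pparg), the 3 retinoid X receptors (Rxra, Rxrb and Rxrg), the 3 estrogen-related receptors (Esrra, Esrrb and Esrrg) and the coactivator Ppargc1a. They were chosen as every row of the deposited mRNA table whose RefSeq transcript belongs to one of these rat genes, which gave 12 of 20734 rows. All 10 genes had a row, Pparg had 3, and all 10 were among the 19942 genes tested.

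The exposed group was 3 samples of neonatal rat ventricular cardiomyocytes kept in 10 µM isoproterenol for 24 h, and the controls were 3 untreated samples of the same cells. All cells came from Sprague-Dawley rats aged 1 to 3 days. Before the exposure, fibroblasts had been depleted by attachment to an uncoated flask and the cells had been moved to serum-free medium. Passaging is mentioned in the sample labels and transfection in the design text, with no explanation of either. The design text gives 3 biological replicates per group without naming litters or culture days, and the p-values cover the spread among these 6 arrays only, part of which may be technical.

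A PPAR binds DNA only as a pair with an RXR, on 2 copies of a short motif in direct repeat, and is switched on by fatty acids and their derivatives. The ERRs have no known natural hormone and depend on coactivators, of which PGC-1 alpha, the product of Ppargc1a, also serves the PPARs. In heart muscle these factors are known for driving genes of fatty acid uptake, beta-oxidation and mitochondrial respiration. RXRs are also the partners of thyroid hormone, retinoic acid and liver X receptors.

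RNA was hybridised to one-colour arrays, 1 per sample. A value is the scaled log2 signal, which is log2 of the scanner's processed intensity minus the array's own 75th percentile, so that 0 marks a signal equal to that percentile. Values of different probes were not set against each other as levels, since probes differ in efficiency. A gene is said to have risen or fallen where limma's moderated test, two-sided and adjusted by Benjamini-Hochberg over all 19942 genes, gave an adjusted p under 0.05. Changes are log2 changes, isoproterenol minus control, with the model's SE and n = 3 per group. In bulk RNA, fewer cells of a type and less RNA per cell cannot be told apart.

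The arrays came from 2 slides, and this touches every result. Isoproterenol replicates 2 and 3 were on slide 2, and isoproterenol replicate 1 shared slide 1 with all 3 controls. Slide 2 was dimmer, with 75th percentiles of 198 and 240 scanner units and 61.3% and 70.9% of mRNA probes well above background, against 514 to 563 units and 97.7% to 99.8% on slide 1. These units are background-subtracted. Before subtraction, the negative control spots had medians of 87 and 84 units on slide 2, against 27 to 30 on slide 1, so background was higher on slide 2. Values within slide 1, where isoproterenol replicate 1 stands alone against the 3 controls and is assumed to vary as they do, are therefore given beside the comparison of all 6 arrays. Of the markers of cardiomyocytes 1 rose (Myh6) and 6 of 7 tested did not pass; their median scaled log2 signal was between 7.82 and 8.38 on isoproterenol arrays and between 7.68 and 7.75 on control arrays. Of 8 fibroblast markers 4 fell (Lum, Postn, Col3a1 and Tcf21), and their median was between 3.29 and 3.73 on isoproterenol arrays and between 3.82 and 4.21 on control arrays. Of 4 smooth muscle markers 2 rose (Acta2 and Tagln) and 1 fell (Smtn), of 6 endothelial markers 1 fell (Kdr), and of 3 macrophage and 3 adipocyte markers 0 passed. Kdr was well above background on 1 isoproterenol array. Its change was −0.05 under another background correction, normexp (adjusted p = 0.89). The median of the smooth muscle markers was between 2.75 and 3.31 on isoproterenol arrays and between 2.29 and 2.96 on control arrays, and that of the endothelial markers between −0.87 and −0.18 on isoproterenol arrays and between −1.03 and −0.70 on control arrays. The macrophage markers had medians of 2.24 to 2.80 on isoproterenol arrays and 1.96 to 2.59 on control arrays, and the adipocyte markers of −5.22 to −3.85 on isoproterenol arrays and −5.31 to −5.12 on control arrays. Each adipocyte marker was well above background on 1 isoproterenol array. Their median was −5.22 on isoproterenol replicate 1, and −3.99 and −3.85 on the 2 arrays of slide 2. The slides matter here too, as the median change of the cardiomyocyte markers was 0.39 over all arrays and 0.09 within slide 1. With slide as a block Myh6 did not pass (adjusted p = 0.0687) and Pln fell (adjusted p = 0.024). Of the other markers only Postn, Lum and Kdr passed in that fit, all lower. The part of these markers in the results below was not tested.

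Of the 10 regulators 5 fell with isoproterenol (Rxrg, Ppargc1a, Rxra, Rxrb and Ppara), 0 rose and 5 did not pass. Over all genes 5.92% fell, 10.2% rose and 16.1% changed in either direction. The median change of the 10 was −0.66, beside 0.07 for all genes. The values of the 2 groups were apart in 7 of the 10, and in 41.4% of all genes. With slide as a block 4 of the 10 fell, all but Ppara, while 7.29% of all genes changed, 3.64% lower and 3.66% higher. The same 4 fell within slide 1, where 5.23% of all genes changed, 2.73% lower and 2.5% higher; slide 2 holds no control, so both rest on the arrays of slide 1 for the size of the change. The number of the 10 that changed in either direction rested on single arrays. It was 2 without control replicate 2 or without control replicate 3. It was 8 without isoproterenol replicate 1, which leaves each group on a slide of its own, and Esrra among them was higher (0.74, adjusted p = 0.00756). Under normexp, a background correction fitted to spot and background medians, 3 of the 10 fell (Rxra, Rxrg and Ppargc1a), while 14.4% of all genes changed, 3.76% lower and 10.6% higher.

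**Figure D1:**
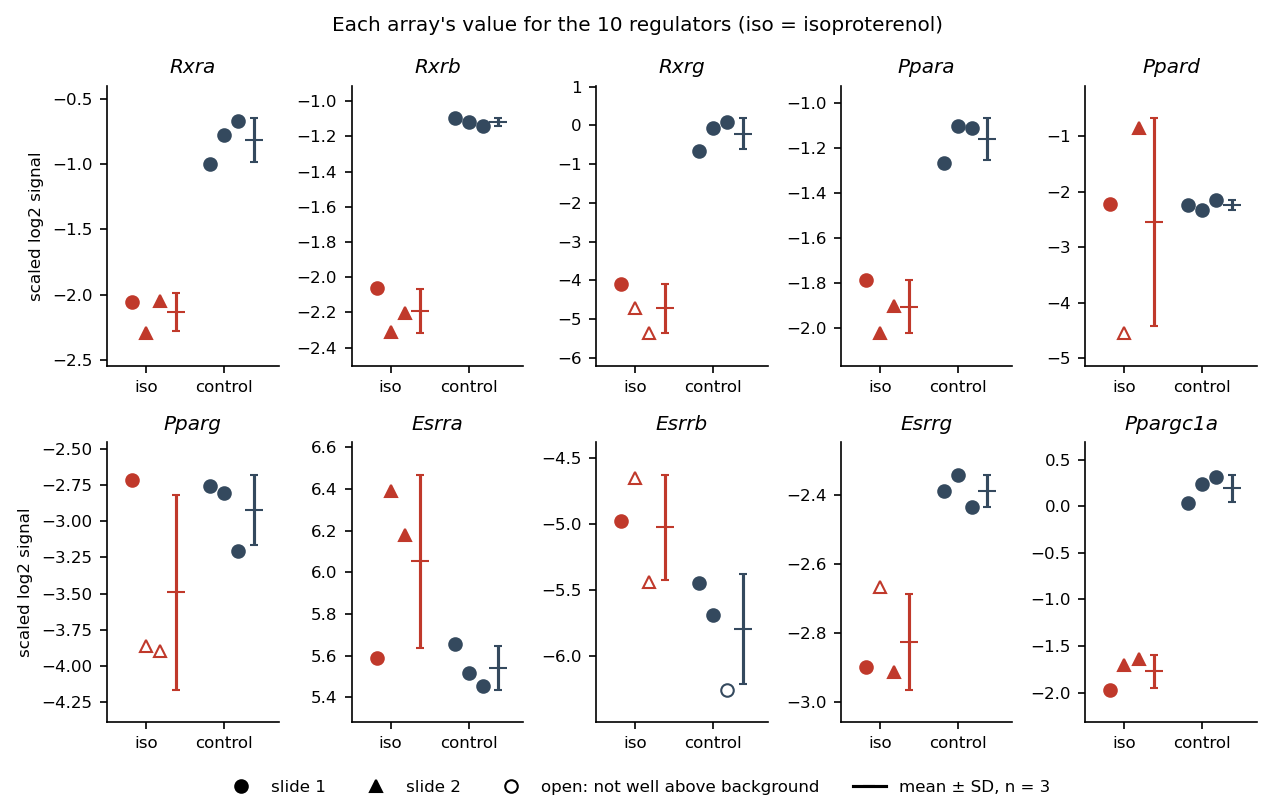
Scaled log2 signal (vertical axis, one scale per panel) of the 10 regulators on each of the 3 isoproterenol and 3 control arrays. Circles are slide 1, triangles slide 2, open symbols were not well above background, and bars show mean ± SD (n = 3). In Rxra, Rxrb, Rxrg, Ppara and Ppargc1a the isoproterenol arrays of both slides lie below every control array, whereas in Ppard, Pparg and Esrra the isoproterenol array of slide 1 lies beside the controls.

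The start regions of the 4 genes that fell in both comparisons are shown because cAMP, which isoproterenol raises, is known to act through the factor CREB on the sequence TGACGTCA, and because these receptors bind copies of the motif AGGTCA. Each window holds 250 bases before and 50 bases from the RefSeq transcript start, 5′ to 3′ on the gene's strand, from RefSeq in build GRCr8, a later build than the one the array headers name. In Ppargc1a the capitals mark the full cAMP response element; in Rxra and Rxrb they mark GC boxes (GGGCGG on either strand) and in Rxrb also the short form of the cAMP element (TGACG on either strand). Ppargc1a is on the plus strand at chr14:63634058-63634357, Rxrg on the plus strand at chr13:82276237-82276536, Rxra on the plus strand at chr3:31387642-31387941 and Rxrb on the minus strand at chr20:4824610-4824909.
Ppargc1a: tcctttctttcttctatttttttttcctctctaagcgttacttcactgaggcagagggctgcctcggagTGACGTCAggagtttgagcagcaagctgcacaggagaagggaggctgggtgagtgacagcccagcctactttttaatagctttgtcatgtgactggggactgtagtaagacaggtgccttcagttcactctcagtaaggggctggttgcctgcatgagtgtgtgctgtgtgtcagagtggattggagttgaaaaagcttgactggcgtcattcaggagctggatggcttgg
Rxrg: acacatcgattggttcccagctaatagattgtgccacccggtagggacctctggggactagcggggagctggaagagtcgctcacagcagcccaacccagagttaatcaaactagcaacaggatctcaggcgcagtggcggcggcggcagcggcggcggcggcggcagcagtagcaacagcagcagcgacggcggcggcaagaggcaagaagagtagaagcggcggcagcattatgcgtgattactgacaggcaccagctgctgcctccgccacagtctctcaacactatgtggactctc
Rxra: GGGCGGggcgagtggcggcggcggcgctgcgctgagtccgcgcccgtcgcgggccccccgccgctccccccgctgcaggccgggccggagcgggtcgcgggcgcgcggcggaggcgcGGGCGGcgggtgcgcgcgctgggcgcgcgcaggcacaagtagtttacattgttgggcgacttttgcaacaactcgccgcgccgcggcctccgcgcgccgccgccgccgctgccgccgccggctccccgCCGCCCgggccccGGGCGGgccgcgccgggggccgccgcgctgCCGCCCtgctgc
Rxrb: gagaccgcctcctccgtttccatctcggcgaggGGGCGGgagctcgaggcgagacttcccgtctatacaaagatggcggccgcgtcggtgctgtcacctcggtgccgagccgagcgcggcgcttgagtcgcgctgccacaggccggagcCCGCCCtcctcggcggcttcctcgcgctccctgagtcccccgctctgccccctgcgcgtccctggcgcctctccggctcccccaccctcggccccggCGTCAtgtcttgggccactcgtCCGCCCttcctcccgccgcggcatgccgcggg
Counted from the start site, the full element begins at −181 in Ppargc1a, and a short form outside it begins at 25, left in lower case. Windows were held for 9 of the 10 genes, 13 windows in all, and 1 of the 13 had the full element, against 1.83% of 33469 windows of the same length. The short form TGACG, which the full element contains, was in 3 of the 13 windows (Ppargc1a, Rxrb and Esrrb), against 21.2% of all. The receptor motif AGGTCA was in 1 of the 13, an Esrrg window, against 16.2% of all. The DR1 repeat, which is 2 copies of AGGTCA with 1 base between them, and the ERR element TCAAGGTCA were in 0 of the 13, against 0.0538% and 0.433% of all. The GC box was in 7 of the 13, against 33.1% of all. The Rxrg window held no GC box, no cAMP element of either form and no receptor motif. Both strands were searched, and a match describes letters and not binding.

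All 3 retinoid X receptors fell. Rxrg, the isoform most restricted to muscle and brain, gave −4.10, −4.70 and −5.37 on the isoproterenol arrays, against −0.66, −0.06 and 0.09 on the control arrays. Every isoproterenol value was thus at least several units below every control value, but isoproterenol replicates 2 and 3 were not well above background. The change was −4.51 ± 0.36 (adjusted p = 0.00226), and −3.89 within slide 1 (adjusted p = 0.0274). Rxrg fell on every subset with one array left out, with changes from −4.83 to −4.19. Its size depended on the background correction, since it was −1.98 (adjusted p = 0.00934) under normexp, and no exact fold is given.

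Rxra, the main isoform in many tissues, gave −2.05, −2.30 and −2.04 with isoproterenol, against −0.999, −0.78 and −0.67 in controls. The isoproterenol values of both slides lay close together and below every control. The change was −1.31 ± 0.18 (adjusted p = 0.0079), and −1.24 within slide 1 (adjusted p = 0.0451). Without control replicate 2 it was −1.30 (adjusted p = 0.0516), without control replicate 3 −1.24 (adjusted p = 0.0578), and under normexp −0.71 (adjusted p = 0.0378).

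Rxrb, the third and widely expressed isoform, gave −2.06, −2.31 and −2.20 with isoproterenol, against −1.10, −1.12 and −1.14 in controls. The control values lay within a narrow range and the isoproterenol values all below it. The change was −1.07 ± 0.16 (adjusted p = 0.00969), and −0.94 within slide 1 (adjusted p = 0.0436). It did not pass without control replicate 2 (−1.07, adjusted p = 0.0605), without control replicate 3 (−1.08, adjusted p = 0.0645) or under normexp (−0.51, adjusted p = 0.0841).

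Ppargc1a, which encodes PGC-1 alpha, gave −1.97, −1.71 and −1.64 with isoproterenol, against 0.03, 0.24 and 0.31 in controls. All 6 values were well above background and the isoproterenol values of both slides lay below every control. The change was −1.97 ± 0.18 (adjusted p = 0.00303), a signal 3.9-fold lower, and −2.16 within slide 1 (adjusted p = 0.0274). Without any one array it lay between −2.05 and −1.87, with adjusted p of at most 0.0314, and under normexp it was −1.40 (adjusted p = 0.00821).

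Of the PPARs, Ppara, the receptor most tied to cardiac fatty acid oxidation, gave −1.79, −2.03 and −1.91 with isoproterenol, against −1.27, −1.10 and −1.11 in controls. The groups did not overlap, and all values were well above background. The change was −0.75 ± 0.16 (adjusted p = 0.0271), but −0.63 within slide 1, where it did not pass (adjusted p = 0.087). It also did not pass with any of the 3 controls or with isoproterenol replicate 2 or 3 left out (adjusted p from 0.07 to 0.136, changes from −0.80 to −0.69), under median scaling (−0.68, adjusted p = 0.0529) or under normexp (−0.31, adjusted p = 0.155).

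Ppard, the broadly expressed member, gave −2.23, −4.55 and −0.86 with isoproterenol, against −2.24, −2.33 and −2.14 in controls. The isoproterenol arrays of slide 2 stood on either side of all other arrays, with replicate 2 not well above background, while isoproterenol replicate 1 lay within the control range. The change was −0.31 ± 0.83 (adjusted p = 0.808, 95% interval −2.29 to 1.67). It was 0.01 within slide 1 and 0.69 without isoproterenol replicate 2, so no direction can be given.

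Pparg, best known as the adipocyte receptor, had 3 rows. Its brightest, NM_013124, gave −2.71, −3.86 and −3.90 with isoproterenol, against −2.76, −2.80 and −3.20 in controls. The isoproterenol arrays of slide 2 were lower than the rest and not well above background, and replicate 1 was beside the controls. The change was −0.57 ± 0.35 (adjusted p = 0.272, 95% interval −1.40 to 0.26), with 0.21 within slide 1 and 0.36 under normexp. With each table row as an item of its own, an alternative chosen after the data had been seen, NM_001145366 was at −0.22 ± 0.43 (adjusted p = 0.742) and NM_001145367 at 0.20 ± 0.29 (adjusted p = 0.636). The 3 rows thus had no common sign, and each was well above background on 1 isoproterenol and 3 control arrays. Without isoproterenol replicate 1, NM_013124 was at −0.96 (adjusted p = 0.00721).

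No estrogen-related receptor passed. Esrra, the receptor that serves as the chief partner of PGC-1 alpha, gave 5.59, 6.39 and 6.18 with isoproterenol, against 5.66, 5.52 and 5.45 in controls. Slide 2 was higher than slide 1, and isoproterenol replicate 1 lay among the controls. The change was 0.51 ± 0.24 (adjusted p = 0.174, 95% interval −0.06 to 1.08) and 0.05 within slide 1. Without isoproterenol replicate 1 it was 0.74 (adjusted p = 0.00756), a comparison between slides.

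Esrrg, a constitutively active receptor of oxidative tissues, gave −2.90, −2.67 and −2.91 with isoproterenol, against −2.39, −2.34 and −2.43 in controls. The groups did not overlap, and isoproterenol replicate 2 was not well above background. The change was −0.44 ± 0.16 (adjusted p = 0.104, 95% interval −0.82 to −0.05) and −0.51 within slide 1 (adjusted p = 0.106). It passed with scaling over the probes detected on all arrays (−0.68, adjusted p = 0.0283) and without isoproterenol replicate 1 (−0.40, adjusted p = 0.0489), and was 0.18 under normexp.

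Esrrb, known from pluripotent cells and the inner ear, was close to the background. It gave −4.98, −4.65 and −5.44 with isoproterenol, against −5.44, −5.68 and −6.25 in controls, and was well above background on 1 isoproterenol and 2 control arrays. These values are signals of 5.73 to 19.0 scanner units, and the change of 0.77 ± 0.29 did not pass (adjusted p = 0.112).

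**Figure D2:**
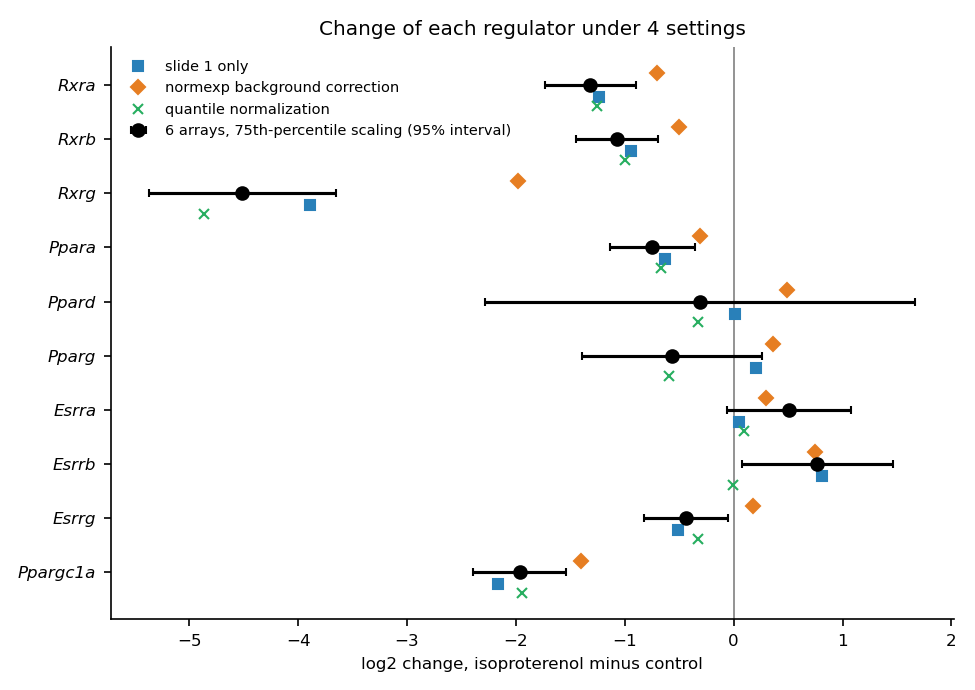
Log2 change (horizontal axis, isoproterenol minus control) of each regulator over all 6 arrays with its 95% interval, within slide 1, under normexp and under quantile normalization. The intervals of Rxra, Rxrb, Rxrg, Ppara and Ppargc1a lie below 0, and so do these 5 genes' values under the other 3 settings, whereas those of Ppard, Pparg, Esrrb and Esrrg lie on both sides of 0.

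Scaling moved the centre of all genes as well. The median change of all genes was 0.37 under normexp and −0.17 with scaling over the probes detected on all arrays, against 0.07 as reported, so a change near 0 has no fixed sign. The split of all genes moved with it, with 1373 higher and 1975 lower under scaling over the probes detected on all arrays and 2118 higher and 749 lower under normexp, against 2027 higher and 1180 lower as reported. Rxra, Rxrb, Rxrg, Ppara and Ppargc1a were lower with isoproterenol under each of these scalings. Under normexp, Esrrb was at −3.01 on isoproterenol replicate 1, and at −1.88 and −2.12 on replicates 2 and 3. The Pparg row NM_001145367 was at −2.82, and at −1.98 and −2.10. Neither row was well above background on replicates 2 and 3. Normexp changes of dim genes may thus hold a difference between slides. Its part in their turned signs and smaller falls was not tested. A difference between 2 genes on the same array does not depend on a scaling factor per array, though it does on the background correction. It was taken for 6 pairs chosen after the data had been seen, with an exact two-sided permutation test. The smallest p this test can give with 3 against 3 arrays is 0.1, so none could pass. The lowest p adjusted over the 6 pairs was 0.12. Rxrg minus Rxra was −2.04, −2.41 and −3.32 with isoproterenol, against 0.34, 0.72 and 0.76 in controls. Every isoproterenol value was below every control value. The mean difference between the groups was −3.20 (exact p = 0.1), and −1.27 under normexp, with Rxrg not well above background on isoproterenol replicates 2 and 3. Rxra minus Rxrb was 0.01, 0.02 and 0.16 with isoproterenol, against 0.10, 0.34 and 0.47 in controls, values that overlap (exact p = 0.2). Ppargc1a minus Esrra was −7.56, −8.10 and −7.82 with isoproterenol, against −5.63, −5.27 and −5.14 in controls (exact p = 0.1). Ppara minus Esrra was −7.37, −8.42 and −8.09 with isoproterenol, against −6.92, −6.62 and −6.56 in controls (exact p = 0.1). In both pairs the isoproterenol arrays lay below all controls. The mean difference between the groups was −2.48 for Ppargc1a minus Esrra, with −2.21 within slide 1 and −1.70 under normexp. For Ppara minus Esrra it was −1.26, with −0.67 within slide 1 and −0.61 under normexp.

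The 2 relatives of Ppargc1a gave other values. Ppargc1b, which encodes PGC-1 beta, was at 0.20 ± 0.17 (adjusted p = 0.41). Pprc1, a coactivator of the same family that responds to growth signals, rose by 1.61 ± 0.28 (adjusted p = 0.0144), and by 1.20 within slide 1, where it did not pass (adjusted p = 0.111). Pprc1 also did not pass without control replicate 2 or 3 or without isoproterenol replicate 2 or 3 (adjusted p from 0.0516 to 0.0761). Ppargc1a minus Ppargc1b was 0.34, 0.60 and 0.70 with isoproterenol, against 2.36, 2.86 and 2.93 in controls. Ppargc1a minus Pprc1 was −4.27, −4.57 and −4.62 with isoproterenol, against −1.53, −0.53 and −0.67 in controls. Neither pair overlapped between the groups (exact p = 0.1 each). The mean differences between the groups were −2.16 and −3.57, and under normexp −1.84 and −2.81.

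**Figure D3:**
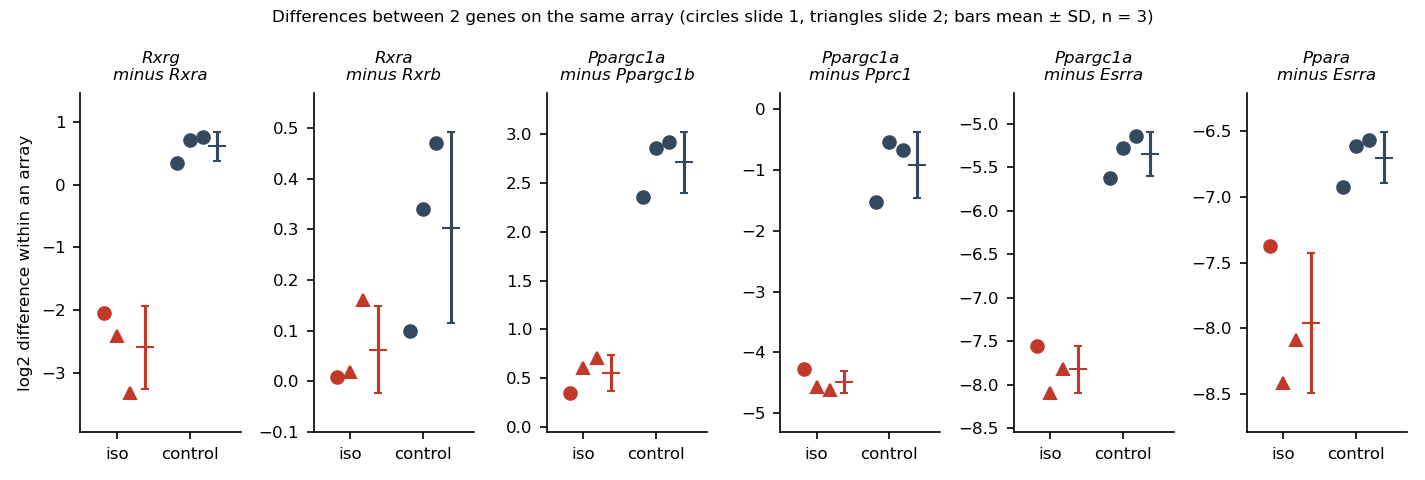
Difference in log2 signal between 2 genes on the same array (vertical axis, one scale per panel) for 6 pairs, on isoproterenol and control arrays. Circles are slide 1, triangles slide 2, and bars show mean ± SD (n = 3); the groups are apart in every pair except Rxra minus Rxrb.

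Among 14 of 21 listed coregulators that could be tested, 1 rose (Pprc1), 3 fell and 10 did not pass, with a median of −0.42; over all genes 10.2% rose, 5.92% fell and 16.1% changed. Nr0b2, which encodes the corepressor SHP, was at −1.88 ± 0.29 (adjusted p = 0.0101). Lpin1, whose product lipin 1 also acts as a coactivator with PGC-1 alpha, was at −1.53 ± 0.29 (adjusted p = 0.0174). Perm1, a muscle factor induced by PGC-1 and ERR, was at −1.44 ± 0.34 (adjusted p = 0.0327). Within slide 1 these 3 were at −1.51, −0.94 and −0.74 and none passed (adjusted p = 0.0872, 0.0738 and 0.115). Nr0b2 was well above background on 1 isoproterenol array and was at −0.63 under normexp (adjusted p = 0.104), while Lpin1, well above background on 2 isoproterenol arrays, was at −0.66 (adjusted p = 0.0346) and Perm1 at −0.83 (adjusted p = 0.0245). Nr0b2 also did not pass without control replicate 2 or 3, and Lpin1 and Perm1 without any one array other than isoproterenol replicate 1. Nrip1, the corepressor RIP140, was at 0.31 ± 0.25 (adjusted p = 0.392), and at 0.56 without isoproterenol replicate 1 (adjusted p = 0.0177).

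Of the other receptors that pair with RXR, 12 of 13 were tested, and 1 rose, 1 fell and 10 did not pass (median −0.19), a share near the 16.1% of all genes that changed. The gene that fell was Thra, thyroid hormone receptor alpha, at −1.39 ± 0.17 (adjusted p = 0.00683) and −1.59 within slide 1 (adjusted p = 0.0305). Without control replicate 3 Thra was at −1.36 (adjusted p = 0.0518). Nr4a2, an orphan receptor and immediate early gene, rose by 0.93 ± 0.24 (adjusted p = 0.043), with 0.52 within slide 1 (adjusted p = 0.185), and did not pass without any one array other than isoproterenol replicate 1. Nr1h3, liver X receptor alpha, was at −0.10 ± 0.19 (adjusted p = 0.724).

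Genes known as PPAR targets fell in most cases: of 31 tested of 35 listed, 21 fell, 1 rose and 9 did not pass, with a median of −1.28, where 5.92% of all genes fell and 10.2% rose. Within slide 1, 20 fell and 0 rose, with a median of −1.51, where 2.73% of all genes fell and 2.5% rose. Pdk4, a kinase that restrains glucose oxidation, was at −4.32 ± 0.28 (adjusted p = 0.00151), Plin5, a lipid droplet protein, at −3.38 ± 0.56 (adjusted p = 0.0127), and Cpt1b, the muscle form of the carnitine shuttle's entry enzyme, at −2.66 ± 0.17 (adjusted p = 0.00149). Pdk4 and Plin5 were well above background on 1 isoproterenol array each, and under normexp they were at −1.68 and −1.38 (adjusted p = 0.0586 for Plin5). Plin5 also did not pass without control replicate 2 or 3 (adjusted p = 0.06 and 0.0665), with slide as a block (−3.61, adjusted p = 0.0655) or under quantile normalization (−3.87, adjusted p = 0.0515). Angptl4, a secreted inhibitor of lipoprotein lipase, was at −1.85 ± 0.19 (adjusted p = 0.00421). Acadm, medium-chain acyl-CoA dehydrogenase, was at −0.51 ± 0.29 (adjusted p = 0.244) over all arrays but at −1.14 within slide 1, where it passed (adjusted p = 0.0351). The gene that rose was Vldlr, a lipoprotein receptor, by 0.88 ± 0.21 (adjusted p = 0.0379), with 0.59 within slide 1 (adjusted p = 0.183). Vldlr did not pass without any one array other than isoproterenol replicate 1. The count that changed was 10 without control replicate 3 and 11 without control replicate 2, against 22. As the regulators and the lists were chosen with earlier results of these data known, such counts describe them and test nothing.

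Of the genes known as targets of ERR and PGC-1, 24 of 25 were tested: 4 fell, 1 rose and 19 did not pass, with a median of −0.32. Over all genes 5.92% fell and 10.2% rose, and over the 6 arrays the share of the list that changed was near the 16.1% of all genes. With slide as a block 6 of the 24 fell and 0 rose, where 3.64% of all genes fell and 3.66% rose. The list's median within slide 1 was −0.12, against 0.11 for all genes. Ldhb, the heart subunit of lactate dehydrogenase, was at −2.06 ± 0.16 (adjusted p = 0.00226), Slc2a4, the insulin-responsive glucose transporter, at −1.26 ± 0.21 (adjusted p = 0.0128), and Mb, myoglobin, at −1.18 ± 0.22 (adjusted p = 0.0182). Within slide 1 they were at −1.95, −1.52 and −1.59. Tfb1m, a methyltransferase of mitochondrial ribosomal RNA, rose by 0.95 ± 0.19 (adjusted p = 0.0201), with 0.92 within slide 1 (adjusted p = 0.0634), and did not pass under normexp (0.70, adjusted p = 0.069) or with slide as a block (adjusted p = 0.0711). With single arrays left out the list's count ran from 1, without control replicate 2 or 3, to 15, without isoproterenol replicate 1. Slc2a4, Mb and Tfb1m did not pass without control replicate 2 or 3, nor Mb and Tfb1m without isoproterenol replicate 3, nor Mb without control replicate 1. Tfam is not analysed here.

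Genes that make or carry retinoids and fatty acid ligands were tested for 11 of 15 listed, of which 2 fell, 1 rose and 8 did not pass (median −0.13), where 5.92% of all genes fell, 10.2% rose and 16.1% changed. Aldh1a2 and Aldh1a1, which oxidise retinaldehyde to retinoic acid, were at −1.59 ± 0.25 (adjusted p = 0.0106) and −0.79 ± 0.19 (adjusted p = 0.0363). Crabp2, which carries retinoic acid to its receptors, rose by 0.88 ± 0.18 (adjusted p = 0.0219). Within slide 1 the 3 were at −1.38, −0.59 and 0.65 and none passed (adjusted p = 0.0534, 0.153 and 0.0831). Aldh1a1 and Crabp2 did not pass without any one array other than isoproterenol replicate 1, and Aldh1a2 did not pass without control replicate 3. Aldh1a2 was well above background on 2 isoproterenol arrays and was at −0.57 under normexp, where it did not pass (adjusted p = 0.1), nor did it with slide as a block (adjusted p = 0.0613). Crabp2 did not pass under normexp (adjusted p = 0.0525) or with slide as a block (adjusted p = 0.0667).

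**Figure D4:**
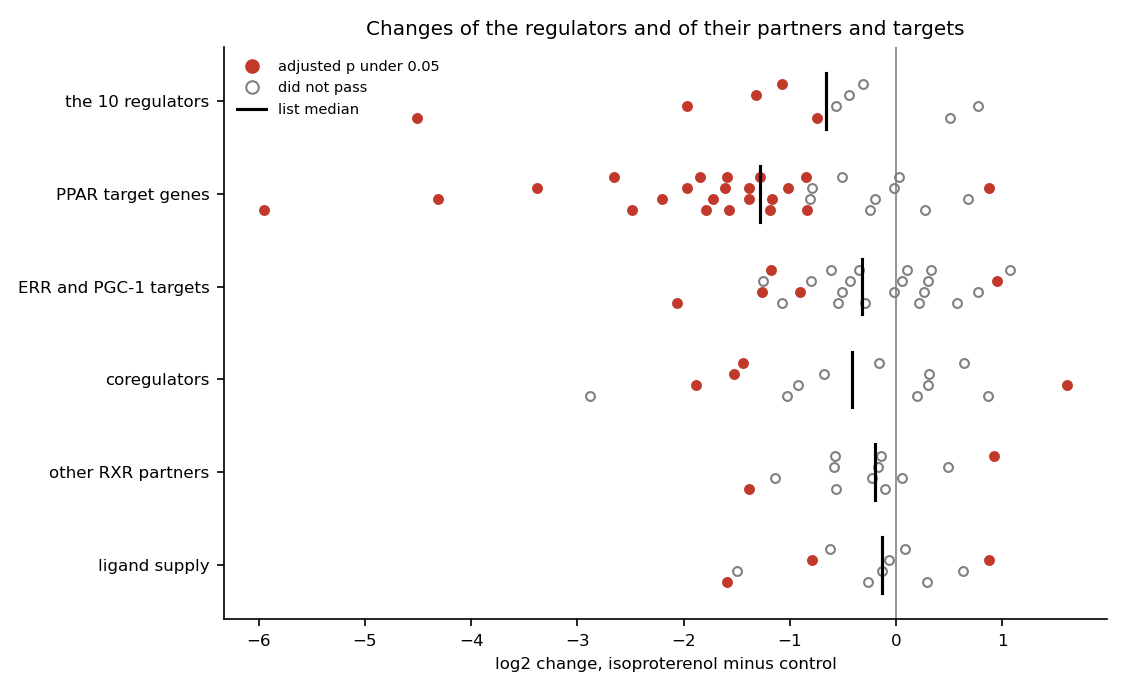
Log2 change (horizontal axis, isoproterenol minus control) of each tested gene among the 10 regulators and the 5 lists of partners and targets; filled points passed an adjusted p of 0.05 and vertical bars are list medians. The PPAR target genes have the lowest median, −1.28, and 21 of their 31 points are filled to the left of 0.

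For each regulator that fell, the 3 named genes with the most similar values were found by the root mean square difference over the 6 arrays, each gene centred on its own mean. For Rxrg they were Pdk4 (0.239 log2 units), Lrrc39 (0.252) and Tbc1d10c (0.359). Rxrg and Pdk4 were each well above background on 1 isoproterenol array, so their likeness is partly between values near the background. On isoproterenol replicates 2 and 3, Rxrg was at −4.70 and −5.37 and Pdk4 at −4.74 and −5.40. For Ppargc1a they were Adra1b (0.103), Misp3 (0.111) and Gckr (0.116), and for Rxra Trim34 (0.0718), Fndc1 (0.0858) and Bphl (0.0959). Rxrb was nearest to Atpaf1 (0.0595), Anapc2 (0.0611) and Egfl6 (0.0637), and Ppara to Prr16 (0.0555), Hook2 (0.0588) and Twnk (0.0634). The values describe likeness over 6 arrays of 2 groups and no more.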

How the data were processed

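RNA of 6 samples was measured on Arraystar lncRNA and mRNA arrays with Cy3 label. Per the file headers, the scanner software was Agilent Feature Extraction 11.0.1.1. The deposited intensity values are its processed signals, background-subtracted and linear, and 0 spots were saturated. The authors also deposited log2 values per transcript; the steps behind these are not given in the sources. Scanner files carry no transcript names, so table rows were matched to probes: log2 intensities were quantile-normalized, and the nearest probe over the 4 arrays of slide 1 was accepted at a distance under 0.05 and under 0.25 of that to the next probe. Of 20734 rows 20639 matched, the member rows among them, and all 20638 neighbouring pairs followed the spot order. Above a deposited value of 4, 100% of matched values lay within 0.02 of the recomputed ones on each array, slide 2 included. Over all matched rows the 95th percentile of the difference was 0.467 on isoproterenol replicate 2 and 0.242 on replicate 3. Rxrg's quantile-normalized values on these 2 arrays, 3.33 and 3.01, lie under 4, so this check does not cover them. Accessions were named through a RefSeq table of GRCr8, which named 13956 of 14757 NM rows, and the 5977 Ensembl rows stayed unnamed. An unnamed row was counted as a gene of its own in the tests and in the shares of all genes. Of the 19942 genes tested 13207 had a name.

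Values were log2 intensity minus each array's 75th percentile over non-control probes, without outlier spots. Genes needed a signal well above background on 3 of 6 arrays and were represented by their brightest probe; all matched rows met this. limma 3.58.1 in R 4.3.3 compared the groups, and was tested on simulated data. Slides were told apart by the scan identifiers and array positions in the headers. Alternatives changed the scaling, background correction (normexp, offset 50, on spot medians, as the files hold no spot means), filter, probes per gene, slide, replicate block, variance model, array weights and each array. Named genes were all members, up to 4 per list and direction by size, and 10 fixed ones; some genes under this rule are not reported here. Members and lists were chosen with earlier results of these data known. The number of arrays limits precision. Marker genes were named after their values had been seen.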

Additional observations from a re-analysis of the deposited data

How the results depend on the processing

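The direction of Rxra, Rxrb, Rxrg, Ppara and Ppargc1a was the same under all 21 alternatives, but not all of these could move it. Rxrg is not among the genes detected on all 6 arrays. The filters, the mean of all probes, the replicate block, the variance model and the fit per row left these genes' changes as reported. Slide as a block and slide 1 alone gave the same change as each other. Dropping the dim-probe filter changed nothing, because every matched row passes it. Genes changed, against 3207, numbered 1454 with slide as a block, 1043 within slide 1, 1370 within slide 1 after quantile normalization, 1452 with a replicate block and 11376 with array weights, which gave isoproterenol replicate 1 a weight of 0.121; leaving out single arrays gave 369 to 10396. Regulators changed, against 5, numbered 3 under normexp and 8 with array weights, and 2 to 8 without single arrays. Coregulators changed, against 4, numbered 1 with slide as a block, 0 within slide 1, 1 within slide 1 after quantile normalization, 1 with a replicate block, 11 with array weights and 0 to 10 without single arrays. RXR partners, against 2, numbered 1 under median scaling, quantile normalization, either block and both slide 1 settings, 7 with array weights and 0 to 7 without single arrays. ERR and PGC-1 targets, against 5, numbered 9 among genes detected on all 6 arrays, 2 with a replicate block, 17 with array weights and 1 to 15 without single arrays. Ligand supply genes, against 3, numbered 1 under normexp, 0 with slide as a block and within slide 1, 1 within slide 1 after quantile normalization, 1 with a replicate block, 7 with array weights and 0 to 7 without single arrays; PPAR targets ranged from 10 to 25 without single arrays. Signs turned for Ppard (0.49 under normexp, 0.00963 with slide as a block and within slide 1, 0.33 with array weights, −1.15 to 0.69 without single arrays, the highest without isoproterenol replicate 2), Pparg (0.36 under normexp, 0.21 with slide as a block and within slide 1, 0.14 within slide 1 after quantile normalization), Esrra (−0.093 within slide 1 after quantile normalization), Esrrb (−0.0092 under quantile normalization), Esrrg (0.18 under normexp), Ppargc1b (−0.041 when scaled to the probes detected on all arrays) and Nrip1 (−0.19 with slide as a block and within slide 1, −0.22 within slide 1 after quantile normalization). The cause was not tested. After each group's mean was removed, same-numbered samples correlated at 0.00559, 0.0519 and −0.0228. Isoproterenol replicates 1 and 3 correlated best with another number. With 3 arrays per group and the isoproterenol group on 2 slides, these values cannot decide whether the replicate numbers pair the samples. With a replicate block 4 regulators fell, and Ppara did not pass (adjusted p = 0.0802). The slide 1 fit after quantile normalization and the fit per table row were chosen after seeing the data. The lower signal on slide 2 limits the dim probes there, Rxrg, Pparg and Esrrb among them.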
